A study of Mus musculus with 4 samples.

Results

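The group described here comprised 7 genes for the synthesis, vesicular packing, uptake, breakdown and metabotropic sensing of GABA (gamma-aminobutyric acid): Gad1, Gad2, Slc32a1, Slc6a11, Abat, Gabbr1 and Gabbr2. Every probe set annotated to 1 of these symbols and to no other was taken, which gave 16 probe sets of 6 genes among 34945 probe sets of 18193 genes with 1 symbol. Gad1, Gad2, Slc6a11 and Abat had 2 probe sets each, and Slc32a1 and Gabbr1 had 4 each. Gabbr2 had no such probe set and was not analysed here. The genes were chosen by name, with earlier results of these data known, and no measured value entered the rule.

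The tissue was punched from the prelimbic part of the medial prefrontal cortex in adult males at postnatal day 90. Fluoxetine, an antidepressant that blocks serotonin reuptake, had reached 2 of the 4 samples before birth, and the other 2 samples came from untreated males of that age. Strain, genotype, dose and days of exposure are not given in the sources used here. Each group is described as duplicates of biological samples; since it is not said whether a sample was 1 mouse or a pool, or which litters were used, a p-value reflects only how far these 4 arrays spread. The comparison asked whether prenatal exposure left the adult transcripts of the GABA system different, and the series title places that question on inhibitory synapses.

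GABA is the main inhibitory transmitter of the cortex. Glutamate decarboxylase, made from Gad1 and Gad2, forms it from glutamate. The Gad1 enzyme works throughout the neuron and supplies most of the transmitter, whereas the Gad2 enzyme sits mainly at nerve terminals and is drawn on when release is high. The vesicular transporter encoded by Slc32a1 loads GABA into synaptic vesicles. After release, plasma membrane carriers clear it, among them the carrier of Slc6a11, which in the cortex lies mostly on astrocytes. GABA transaminase, encoded by Abat, then starts its breakdown in mitochondria. The GABA-B receptor is a G protein-coupled dimer in which the Gabbr1 subunit binds GABA and the Gabbr2 subunit couples to the G protein. It opens inwardly rectifying potassium channels and restrains presynaptic calcium channels.

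Promoter sequence from RefSeq (build GRCm38.p6) is shown for Gad1 and Gad2, related genes of which 1 probe set each was higher with fluoxetine at an unadjusted p below 0.05, and for Gabbr1, the only GABA-B subunit measured here. Of the 6 members with a RefSeq start in the table, all but Abat, the 250 bases upstream of that start were searched on both strands for 7 motifs. For Gad1, Gad2 and Slc32a1 these windows lay inside the RefSeq span of the gene, downstream of an earlier annotated start. Only stretches of 30 bases around a match are therefore printed for Gad1 and Gad2, all on the plus strand of chromosome 2, with the matches in capitals.
Gad1, TATA box, chr2:70561977-70562006: cgtgagctggatTTATAAtcgccctacaaa
Gad1, GC box, chr2:70562099-70562128: agcgggtccccgcctccccactCCGCCCcc
Gad2, CCAAT box, chr2:22622089-22622118: tcggccaccattCCAATcttgccaaggtct
Gad2, CRE core, chr2:22622282-22622311: ccatttcccttcCGTCActctctcatctcc
Gabbr1, chr17:37045716-37045965, plus strand: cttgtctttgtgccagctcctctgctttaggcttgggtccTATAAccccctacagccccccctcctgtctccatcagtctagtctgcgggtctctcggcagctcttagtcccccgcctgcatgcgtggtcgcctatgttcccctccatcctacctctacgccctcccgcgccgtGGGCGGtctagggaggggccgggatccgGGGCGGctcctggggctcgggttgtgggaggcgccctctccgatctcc

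The motifs were the TATA box TATAA, the CCAAT box CCAAT, the GC box GGGCGG, the CRE core TGACG, the AP-1 site TGANTCA, the homeodomain core TAATTA and the Egr site GCGNGGGCG. None overlaps another in the stretches printed, except that TTATAA holds TATAA on each strand and so counts as 2 matches. In Gad1 the plus-strand match began 139 bases upstream of the start and the GC box, on the minus strand, 8 bases upstream. In Gad2 the CCAAT box began 226 bases upstream and the CRE core, on the minus strand, 33 bases upstream. The Gabbr1 window held TATAA at 210 bases and GC boxes at 76 and 48 bases upstream. The GC box occurred in 32.7% of all 32851 upstream windows of this length, CCAAT in 33.8%, TATAA in 22.8% and the CRE core in 17.8%. The AP-1, homeodomain and Egr letters, present in 6.75%, 4.84% and 4.7% of windows, occurred in 0 of the 6 members' windows. A match describes the letters and not a site in use.

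Each of the 4 arrays had a median log2 intensity between 6.44 and 6.50. With 2 arrays against 2, an exact two-sided permutation test cannot give a p below 0.333. The poly-A control transcripts spiked in before labelling had a higher mean with fluoxetine on 24 of 24 probe sets, by a median log2 difference of 0.24. These probe sets read the same few transcripts (dap, lys, phe and thr) on the same arrays, so they are not 24 separate observations. The labelled tissue was checked against markers: the interneuron markers Sst, Vip and Pvalb lay between 10.25 and 12.43 on every array, and the lowest of the 26 was a probe set of Erbb4 at a mean of 0.49. Slc17a7, the vesicular glutamate transporter of cortical excitatory neurons, lay between 9.46 and 9.51. The summed log2 level of the 10 measured markers of these neurons was 106.4 and 105.7 with fluoxetine and 105.2 and 105.2 without. Of their 28 probe sets, 6 were higher with fluoxetine and 0 lower by an unadjusted limma p below 0.05. Over all named probe sets the shares were 6.4% and 3.04%. Of the 6, 3 were the brightest probe set of a gene. Markers of striatal medium spiny neurons stood apart on untreated replicate 2. These cells of the neighbouring striatum are GABAergic and use Gad1, Gad2 and Slc32a1 themselves. All 21 measured striatal markers were highest on that array. Their summed log2 level was 165.3 and 170.9 with fluoxetine and 167.7 and 186.9 without, and none was at 0, the lowest mean being 5.70. Drd2, a dopamine receptor of these neurons, read 8.24 on untreated replicate 2 and 6.34 to 6.87 elsewhere. For oligodendrocyte markers the same array was highest for 12 of 13, with summed levels of 140.5 and 140.4 against 140.4 and 144.1. The part of these cells in the values of the GABA genes was not tested, and each member probe set that moved by over 1.5 times without that array has its value given below. In punched tissue, fewer cells of a type and less RNA per cell cannot be told apart.

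**Figure D1:**
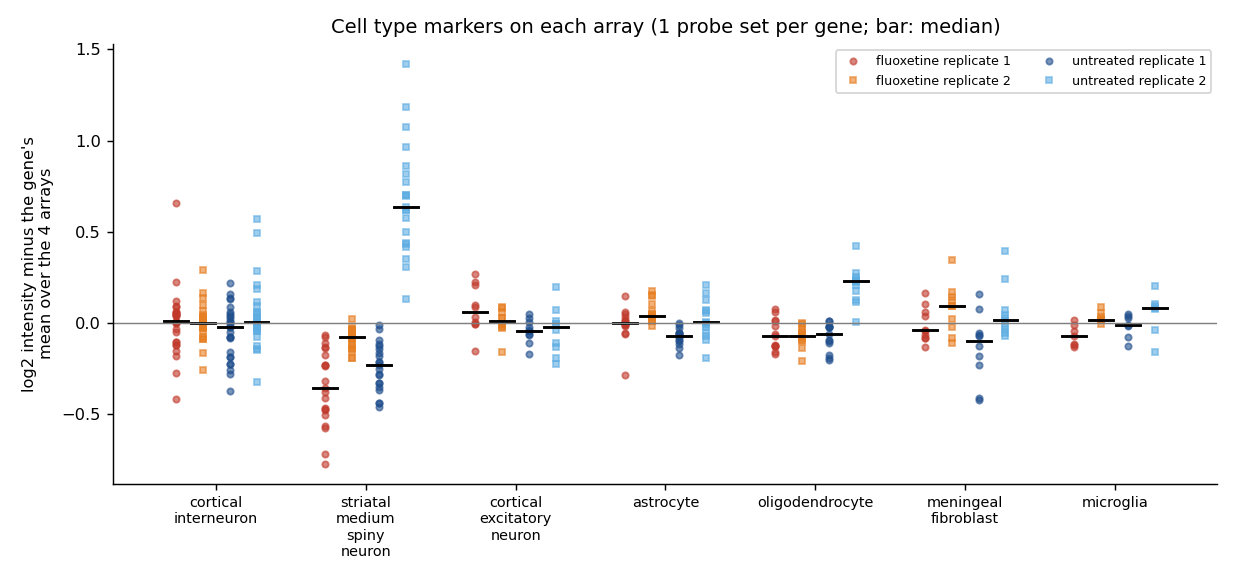
Log2 intensity of each marker gene minus its mean over the 4 arrays (vertical axis), for 7 cell types (horizontal axis), with 1 point per gene and array and a bar at the median. The striatal markers of untreated replicate 2 lie above those of the other 3 arrays, with a median deviation of 0.64, while the medians of the interneuron markers lie between -0.02 and 0.01.

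No member passed the test after correction over all 34945 probe sets (limma, Benjamini-Hochberg): 0 of 16 had an adjusted p below 0.05, and the lowest was 0.387. By the looser rule of an unadjusted limma p below 0.05, 2 member probe sets were higher with fluoxetine, 1 each of Gad1 and Gad2, and 1 of Slc32a1 was lower. The background over all named probe sets was 6.4% higher and 3.04% lower by that rule, so with 16 probe sets the counts of 2 and 1 are near what the whole array gave. The median log2 difference, fluoxetine minus untreated, was -0.02 over the 16 and -0.01 over all named probe sets. The differences of the 6 brightest probe sets, 1 per gene, ran from -0.17 to 0.06, and 0 had an unadjusted p below 0.05. Of all 34945 probe sets 1 (0.00286%) passed the adjusted threshold as higher and 0 as lower, a probe set of Homer1, a scaffold gene of excitatory synapses.

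**Figure D2:**
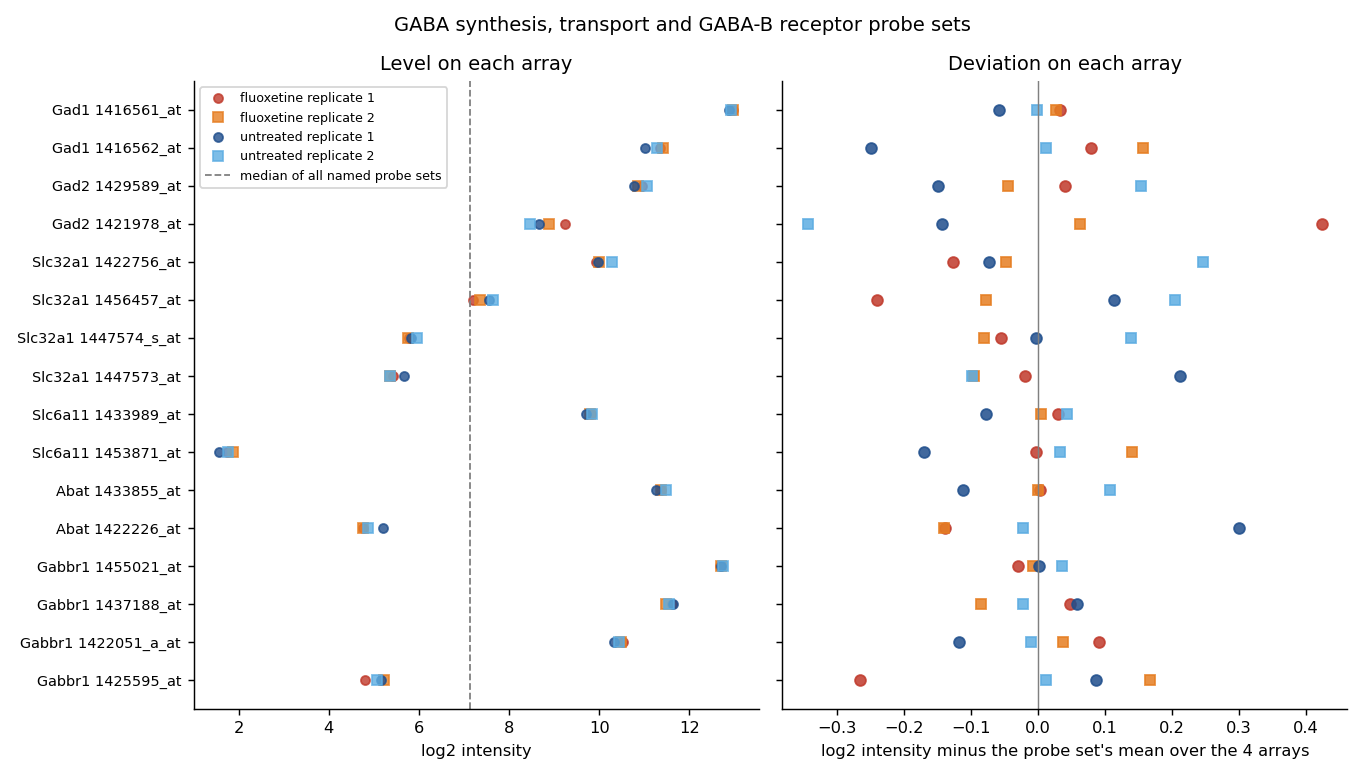
Log2 intensity of the 16 member probe sets on each of the 4 arrays (left, with the median of all named probe sets dashed) and the same values minus each probe set's mean (right). Both fluoxetine arrays lie above both untreated arrays in 4 probe sets and below them in 4. Over all named probe sets the shares were 19.9% and 20%.

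Gad1 was higher on both fluoxetine arrays than on both untreated arrays with each of its probe sets, by small amounts. The brighter one, 1416561_at, stood at 12.96 and 12.96 with fluoxetine and at 12.87 and 12.93 without. Both fluoxetine arrays lay above both untreated arrays, and the log2 difference was 0.06 (SE 0.04), or 0.03 without untreated replicate 1 and 0.09 without untreated replicate 2. The dimmer one, 1416562_at, stood at 11.34 and 11.42 with fluoxetine and at 11.01 and 11.27 without. Here too the groups did not overlap, and untreated replicate 1 was the lowest array. This was a 1.18-fold difference (log2 0.24, SE 0.09; limma, adjusted p = 0.470). The unadjusted p was below 0.05 with all arrays but not without the intensity trend. The difference was 0.28 without fluoxetine replicate 1, 0.20 without fluoxetine replicate 2 and 0.11 without untreated replicate 1, and missed the unadjusted threshold each time. It was 0.37 and past that threshold without untreated replicate 2, the array with high striatal markers.

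Gad2 gave different answers on its 2 probe sets. The brighter one, 1429589_at, read 10.95 and 10.87 with fluoxetine and 10.76 and 11.07 without. The untreated arrays enclosed the fluoxetine arrays, and the log2 difference was -0.00 (SE 0.10). It was -0.16 without untreated replicate 1 and 0.15 without untreated replicate 2. The dimmer one, 1421978_at, read 9.24 and 8.88 with fluoxetine and 8.67 and 8.47 without. The groups did not overlap. This was 1.40-fold, the largest difference among the 16 probe sets (log2 0.49, SE 0.13; limma, adjusted p = 0.387). The difference stayed positive with each array left out, from 0.31 without fluoxetine replicate 1 to 0.67 without fluoxetine replicate 2. It missed the unadjusted threshold without fluoxetine replicate 1 and, at 0.39, without untreated replicate 2.

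The disagreement within a gene was measured on each array as the dimmer probe set minus the brighter one. For Gad2 this value was -1.71 and -1.99 with fluoxetine and -2.09 and -2.59 without, a difference of 0.49 between groups. For Gad1 it was -1.63 and -1.54 with fluoxetine and -1.86 and -1.66 without, a difference of 0.18. The groups did not overlap in either gene, and the exact permutation p was 0.333 for both, the smallest possible (0.833 after adjustment over the 10 pairs of member probe sets). Among all 6847 dimmer probe sets above the median level, 35.9% had such an arrangement, with the dimmer probe set relatively higher on both fluoxetine arrays. Among members it was found in 3 of the 5 such pairs, the other one being 1422051_a_at of Gabbr1.

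This lean was not particular to GABA genes. Of the probe sets above the median level that were not the brightest of their gene, 18.1% were higher with fluoxetine and 1.15% lower by the unadjusted rule. Of the brightest probe sets of such genes 5.74% were higher and 2.01% lower. That balance turned to 4.31% higher and 7.13% lower after another quantile normalization and to 3.51% and 5.8% without untreated replicate 1; the dimmer class then had 15.9% and 3.78%, and 12.2% and 3.13%. The probe sets of Gad1 and Gad2 with an unadjusted p below 0.05 both belong to the first class. The share of higher calls in that class was 5.67% without fluoxetine replicate 1 and 10.3% without the intensity trend, against 1.3% and 1.76% for the brightest. Signals of the control transcripts at their 3' end minus the 5' end differed between groups by -0.09 for Actb and -0.04 for Gapdh, and by 0.15 for Tfrc and 0.14 for Pcx. Probe positions within the transcripts were not used here, and the part of transcript position or RNA quality in the lean was not tested.

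**Figure D3:**
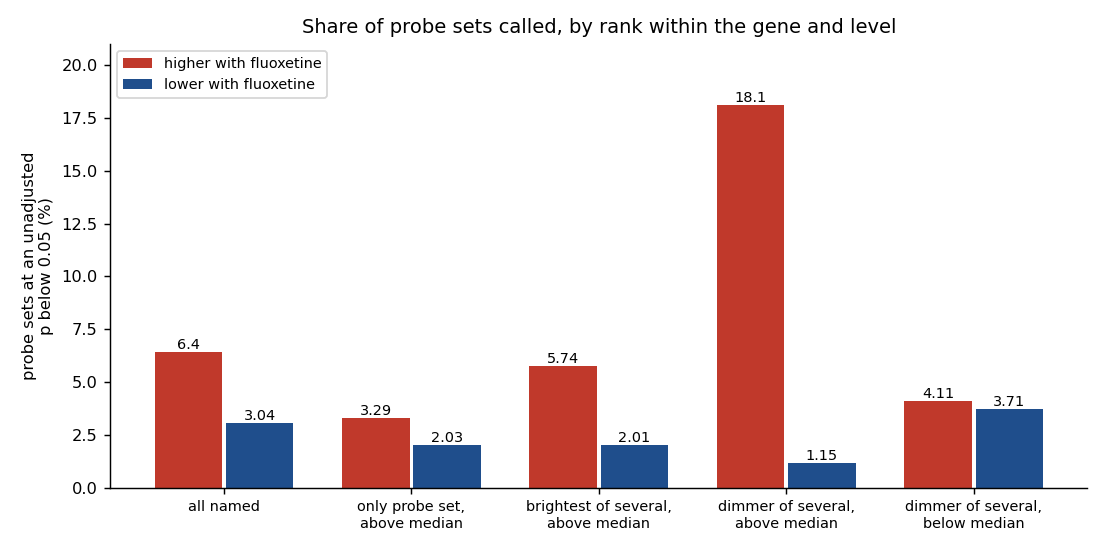
Share of probe sets (vertical axis, percent) at an unadjusted p below 0.05, higher or lower with fluoxetine, for all named probe sets and for 4 classes by rank of brightness within the gene and by level. The dimmer probe sets above the median level reach 18.1% higher, against 5.74% for the brightest.

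Slc32a1, the vesicular transporter, had a negative difference on all 4 of its probe sets. Its brightest, 1422756_at, read 9.92 and 9.99 with fluoxetine and 9.97 and 10.29 without. Untreated replicate 2 alone stood high, untreated replicate 1 lay between the fluoxetine arrays, and the log2 difference was -0.17 (SE 0.10). Without untreated replicate 2, on which the striatal markers were also high, it was -0.01; without untreated replicate 1 it was -0.33. It passed the unadjusted threshold in the latter case and, at -0.22, after another quantile normalization. The probe set 1456457_at, closer to the median level, read 7.19 and 7.35 with fluoxetine and 7.54 and 7.63 without. Both fluoxetine arrays were below both untreated arrays. The fold was 0.802 (log2 -0.32, SE 0.10; limma, adjusted p = 0.429). Without untreated replicate 2 the log2 difference was -0.27 and without fluoxetine replicate 1 it was -0.24, and both missed the unadjusted threshold. The other two, 1447574_s_at and 1447573_at, lay between 5.35 and 5.97 on all arrays, below the median level of 7.12, with log2 differences of -0.14 (SE 0.13) and -0.11 (SE 0.16). Without untreated replicate 2 they were -0.06 and -0.27, and without untreated replicate 1 they were -0.21 and 0.04. Lower calls in the class of 1456457_at, dimmer and above the median level, were the 1.15% given above, or 3.78% after another quantile normalization. Among dimmer probe sets below the median level they were 3.71%.

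Slc6a11, the astrocytic carrier, gave differences smaller than their SE. Its brighter probe set, 1433989_at, read 9.82 and 9.80 with fluoxetine and 9.71 and 9.84 without. The fluoxetine arrays lay inside the untreated range, and the log2 difference was 0.03 (SE 0.07), or -0.03 without untreated replicate 1 and 0.10 without untreated replicate 2. The other, 1453871_at, stayed between 1.57 and 1.88, in the lowest 3.72% of probe sets by level, with overlapping groups and a difference of 0.14 (SE 0.18), or 0.04 and 0.24 without untreated replicates 1 and 2.

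Abat, the transaminase, gave a difference close to 0 on its bright probe set. That probe set, 1433855_at, read 11.38 and 11.38 with fluoxetine and 11.26 and 11.48 without. The untreated arrays lay on either side of the fluoxetine arrays, and the log2 difference was 0.00 (SE 0.07), or -0.11 and 0.11 without untreated replicates 1 and 2. The dim probe set, 1422226_at, read 4.76 and 4.76 with fluoxetine and 5.20 and 4.87 without. The groups did not overlap, but the level was below the median of all probe sets, and the difference of -0.28 (SE 0.17) missed the unadjusted threshold. Without untreated replicate 2 it was -0.44 and passed that threshold, and without untreated replicate 1 it was -0.12.

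Gabbr1, the ligand-binding subunit of the GABA-B receptor, had differences within their SE on its brightest probe sets. The brightest, 1455021_at, read 12.67 and 12.69 with fluoxetine and 12.70 and 12.74 without. The groups did not overlap, but the gap between them was smaller than the distance between the arrays of either group, and the log2 difference was -0.04 (SE 0.04), or -0.02 without untreated replicate 2. The next, 1437188_at, read 11.62 and 11.48 with fluoxetine and 11.63 and 11.55 without, with overlapping groups and a difference of -0.04 (SE 0.06), or -0.08 without untreated replicate 2. The third, 1422051_a_at, was higher, at 10.53 and 10.47 with fluoxetine and 10.32 and 10.43 without. Its groups did not overlap, and the difference was 0.13 (SE 0.06), short of the unadjusted threshold. Without untreated replicate 2 it was 0.18 and passed that threshold, and without untreated replicate 1 it was 0.07. The dim probe set 1425595_at read 4.80 and 5.23 with fluoxetine and 5.15 and 5.08 without, so that the groups overlapped, with a difference of -0.10 (SE 0.18), or 0.12 and -0.32 without fluoxetine replicates 1 and 2.

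**Figure D4:**
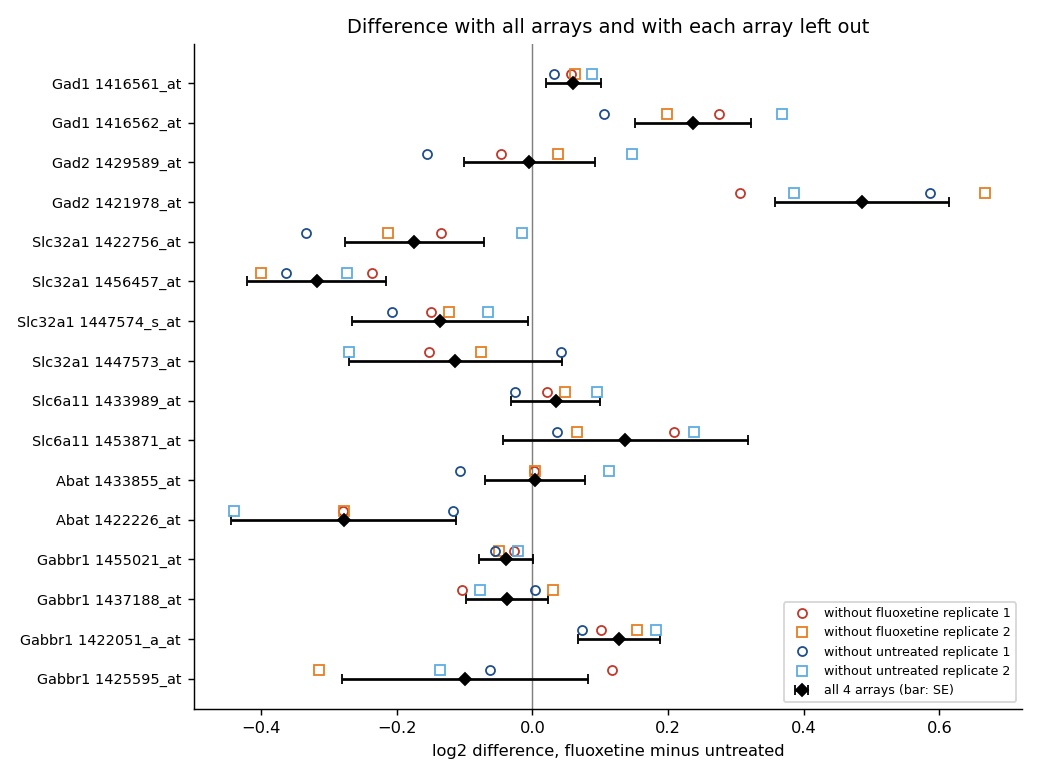
Log2 difference, fluoxetine minus untreated (horizontal axis), of the 16 member probe sets with all arrays (diamond, bar for the SE) and with each array left out (open symbols). Gad2 1421978_at runs from 0.31 to 0.67 and Slc32a1 1456457_at from -0.40 to -0.24 with an array left out, while Gad2 1429589_at crosses 0, from -0.16 to 0.15.

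Groups not overlapping were counted over all members: 4 probe sets were higher on both fluoxetine arrays (both of Gad1, 1 of Gad2, 1 of Gabbr1) and 4 lower (2 of Slc32a1, 1 each of Abat and Gabbr1). Over all named probe sets 19.9% were higher and 20% lower in this way. When all probe sets of a gene were averaged, the log2 difference was 0.15 (SE 0.06) for Gad1, 0.24 (SE 0.08) for Gad2, -0.19 (SE 0.08) for Slc32a1, -0.14 (SE 0.07) for Abat, 0.09 (SE 0.11) for Slc6a11 and -0.01 (SE 0.05) for Gabbr1. None had an adjusted limma p below 0.05 in that fit, and the lowest was 0.523, for Gad2. By the unadjusted rule the means of Gad1 and Gad2 were higher, as were 833 of all 18193 genes, and no member was lower. The means of Slc32a1, Slc6a11, Abat and Gabbr1 include probe sets below the median level.

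The genes of the fixed lists with the pattern most like each GAD probe set were named by the root mean square distance between deviations over the 4 arrays, among 174 genes. For Gad2 1421978_at they were Syt1 (0.0215), the calcium sensor of transmitter release, Dnajc5 (0.0361), a chaperone of synaptic vesicles, and the myelin gene Mbp (0.0884), each on a dimmer probe set. The Syt1 probe set read 11.66 and 11.33 with fluoxetine and 11.13 and 10.88 without, while the brightest Syt1 probe set differed by -0.00. Nearest to Gad2 1429589_at were C1qb (0.0304), Cldn11 (0.0308) and Nr2f2 (0.0335). Nearest to Gad1 1416561_at were Crh (0.00987), Glud1 (0.0114) and Kcnj3 (0.0163), and to Gad1 1416562_at Mobp (0.0447), Dcn (0.0529) and Cacna1a (0.0531). With 4 arrays such closeness is a description only.

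Around the members, the carriers and breakdown enzymes gave 0 calls with all arrays. Of the other GABA and related carriers, 4 genes were measured, and by the unadjusted rule 0 of 8 probe sets were higher and 0 lower. Slc6a13, a GABA carrier of meninges and vessels, read 7.32 and 7.43 with fluoxetine and 7.52 and 7.52 without, and the betaine and GABA carrier gene Slc6a12 differed by -0.06 (SE 0.20). Among breakdown and cofactor enzymes, 0 of 17 probe sets of 9 genes were called in either direction. Over all named probe sets 6.4% were higher and 3.04% lower. After another quantile normalization 1 carrier and 2 breakdown probe sets were lower; 1 breakdown probe set was lower without fluoxetine replicate 2, and 1 higher without untreated replicate 2. Aldh5a1, which completes GABA breakdown after Abat, differed by -0.02 (SE 0.05).

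Among genes that supply glutamate and glutamine for GABA synthesis, 9 of 27 probe sets were higher by the unadjusted rule and 0 lower, from 6 of the 9 measured genes; over all named probe sets the share higher was 6.4%, and 0 of the 27 passed after adjustment. Of the 9, 6 were dimmer probe sets above the median level. That class held 12 probe sets of this list, so 50% of them were higher, against 18.1% over all genes. The count of 9 was 3 without fluoxetine replicate 1, 4 without fluoxetine replicate 2, 5 without untreated replicate 1 and 2 without the intensity trend. The difference of Glul, the glutamine synthetase of astrocytes, was 0.27 (SE 0.05) on 1 probe set and 0.06 (SE 0.04) on its brightest. The glutamine carrier genes Slc38a1 and Slc38a2 differed by 0.27 (SE 0.08) and 0.22 (SE 0.06), the former being 0.01 on its brightest probe set. Among the glutamate carriers the largest differences past that rule were 0.22 (SE 0.07) for Slc1a2, 0.25 (SE 0.08) for Slc1a3 and 0.16 (SE 0.06) for the neuronal Slc1a1. On the brightest probe sets 3 of 9 were called higher, those of Slc1a2 (0.10, SE 0.04), Slc1a3 (0.21, SE 0.06) and Slc38a2, and 0 of 9 without the intensity trend. Markers of astrocytes, where Glul, Slc1a2 and Slc1a3 are made, were higher on 11 of 42 probe sets and lower on 0. Of the 11, 8 were dimmer probe sets above the median level. That class held 18 probe sets of the astrocyte markers, so 44.4% of them were higher, against 18.1% over all genes. Without the intensity trend 4 of the 42 were higher and 1 lower. On the brightest probe sets 3 of 14 astrocyte markers were higher, and Slc1a2 and Slc1a3 are in both lists. The summed log2 level of the 14 was 153.1 and 154.1 with fluoxetine and 152.2 and 153.5 without, and the lowest marker mean was 7.58. Aqp4, the water channel of astrocytes, differed by 0.59 (SE 0.09) and 0.37 (SE 0.09) on its dimmer probe sets and by 0.07 (SE 0.05) on its brightest. The part of astrocyte content in these values was not tested.

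GABA-B receptor partners and effectors had 11 of 54 probe sets higher (20.4%) and 1 lower, in 19 measured genes, and 0 after adjustment. Over all named probe sets the shares were 6.4% and 3.04%. Of the 11 higher, 9 were dimmer probe sets above the median level. That class held 19 probe sets of this list, so 47.4% of them were higher, against 18.1% over all genes. Without fluoxetine replicate 1 the 11 became 3. The G protein subunit genes Gnai1, Gnai2, Gng2 and Gnb1 had leading log2 differences of 0.51 (SE 0.10), 0.35 (SE 0.07), 0.38 (SE 0.07) and 0.26 (SE 0.07). On their brightest probe sets these genes differed by 0.02, 0.01, -0.01 and -0.00. Cacna1b, the presynaptic calcium channel that GABA-B receptors restrain, had a difference of 0.32 (SE 0.09) on 1 of 4 probe sets and 0.10 (SE 0.07) on its brightest. Kcnj9, a subunit of the inwardly rectifying potassium channel, had probe sets at 0.36 (SE 0.10), 0.26 (SE 0.08), -0.01 (SE 0.06) and -0.32 (SE 0.12). Kcnj6, another subunit, lay below the median level on all its probe sets, and none was called. Rgs7, which speeds the shut-off of this signal, was the only gene of the list called on its brightest probe set (0.14, SE 0.05); it was named after its values were seen.

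GABA-A receptor subunits, the ionotropic counterpart, had 7 of 35 probe sets higher (20%) and 0 lower. Over all named probe sets the shares were 6.4% and 3.04%. Of the 7, 6 were in the dimmer class above the median level. That class held 11 probe sets of this list, so 54.5% of them were higher, against 18.1% over all genes. On the brightest probe set 0 of 15 genes were called. Without the intensity trend 5 were higher and 1 lower, the lower one on a brightest probe set. After subtracting array medians 9 were higher, 1 of them on a brightest probe set. The leading one of the 7 was a dimmer probe set of Gabra2, at 8.03 and 7.57 with fluoxetine and 7.02 and 6.75 without. It differed by log2 0.91 (SE 0.17), against 0.12 (SE 0.15) on the brightest of that gene. Among vesicle packing and release genes 9 of 28 probe sets were higher (32.1%) and 0 lower, beside the same 6.4% and 3.04%. Of the 9, 8 were in the dimmer class above the median level. That class held 13 probe sets of this list, so 61.5% of them were higher, against 18.1% over all genes. On the brightest probe set 1 of 11 genes was called higher, Hspa8 (0.09, SE 0.03). The 9 became 5 without the intensity trend, and without untreated replicate 1 there were 6 higher and 3 lower. Syt1, Dnajc5 and Vamp2, a vesicle fusion protein gene, reached 0.61, 0.48 and 0.37, with -0.00, 0.05 and -0.05 on their brightest probe sets. Slc17a7 differed by 0.01 (SE 0.06).

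**Figure D5:**
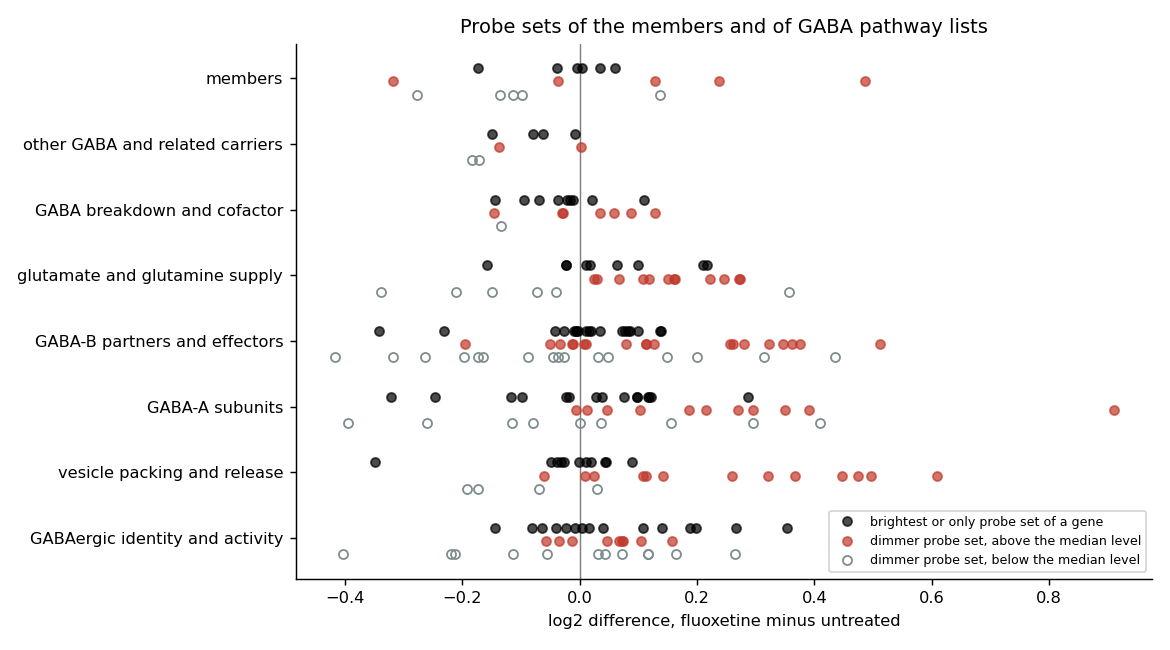
Log2 difference, fluoxetine minus untreated (horizontal axis), of each probe set of the members and of 7 lists of GABA pathway genes (rows), split into the brightest or only probe set of a gene, dimmer ones above the median level and dimmer ones below it. Gabra2, at 0.91, lies farthest to the right; in the supply, GABA-B, GABA-A and release lists the dimmer probe sets above the median level have medians of 0.16, 0.11, 0.22 and 0.26.

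Transcription factors of GABAergic identity and activity genes had 2 of 36 probe sets higher (5.56%) and 1 lower. Over all named probe sets the shares were 6.4% and 3.04%. The 2 were Bdnf, a neurotrophin gene (0.35, SE 0.07), and the early gene Egr1 (0.20, SE 0.07), and the 1 lower was a dim probe set of Satb1. There were 4 higher and 0 lower without fluoxetine replicate 2, and 1 of each without fluoxetine replicate 1. Interneuron markers, which include the cells that make most cortical GABA, had 0 of 42 probe sets higher and 1 lower. These markers had 0 higher and 2 lower without the intensity trend or after another quantile normalization, and 0 of each after subtracting array medians. The calls also changed with an array left out, and some of those fits gave higher calls. Their summed log2 level over 26 genes was 239.7 and 239.8 with fluoxetine and 238.4 and 240.9 without, so that the untreated arrays enclosed the fluoxetine arrays. Of the markers, Sst read 12.23 and 12.34 with fluoxetine and 12.34 and 12.43 without. Pvalb read 11.17 on fluoxetine replicate 1 and 10.25 to 10.36 elsewhere.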

How the data were processed

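The authors deposited 1 log2 intensity for each probe set and array; per the labels' protocols, 250 ng of total RNA was labelled for 3' expression arrays. RMA, affy and limma appear, without versions, in the submitters' processing notes. No source states the log base; a range of -0.08 to 15.14 was taken as log2. Of 45101 probe sets, 34945 had 1 gene symbol in the platform annotation and were tested; 932 with several symbols, 9160 without one and 64 array controls were not. Fluoxetine was compared with untreated in limma 3.58.1 (R 4.3.3; lmFit, eBayes with an intensity trend, two-sided, Benjamini-Hochberg, threshold 0.05), with each probe set kept apart and no filter on low values. The design leaves 2 residual degrees of freedom and 5.11 prior ones came from other probe sets, so each variance rests mostly on those. SEs are limma's moderated ones. Array background can shrink the differences of dim transcripts. No detection calls were used, so dim probe sets may hold background. The members and lists were chosen with earlier results of these data known. Named genes were every member probe set; up to 6 genes per pathway list by smallest p among those with an unadjusted p below 0.05, plus a fixed set; and the 3 genes nearest in pattern to each GAD probe set. The code was tested on simulated data. The alternatives were the variance trend, further normalizations, a level filter, the choice of probe set and leaving out each array.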

Additional observations from a re-analysis of the deposited data

How the results depend on the processing

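The number of arrays, 2 a group, is the main limit, and with an array left out the lone array of its group is assumed to vary like the other group. No paired analysis was possible because the replicate numbers follow accession order and pair no arrays. Over the 10 alternatives, 0 members had an adjusted p below 0.05 in each. The count of members higher at an unadjusted p below 0.05, 2 as reported, was 1 without the intensity trend and 0 with the brightest probe set per gene; it ran from 0 to 2 with an array left out, and the 2 without untreated replicate 2 were Gad1 and Gabbr1. The count lower, 1 as reported, was 2 after another quantile normalization, 0 with the brightest probe set or the mean of a gene's probe sets, and 0 to 2 with an array left out. Over all named probe sets, 2237 were higher: 628 with the brightest and 833 with the mean of a gene's probe sets, where fewer features were tested, and 707 to 2326 with an array left out. Lower were 1064: 638 with the brightest, 301 with only probe sets above the median level, 705 after subtracting array medians, and 337 to 1594 with an array left out. The 1 probe set with an adjusted p below 0.05 became 0 without the intensity trend, with the brightest and with the mean of a gene's probe sets, and 0 to 1 with an array left out. The differences between probe sets of a gene ran from 0.07 to 0.28 for Gad1 and from 0.24 to 0.74 for Gad2 with an array left out. Dimmer probe sets have no value with 1 probe set or a mean per gene, nor those below the median level under that filter.

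Of 129 values of member probe sets under alternatives, 11 had the opposite sign. After another quantile normalization Abat 1433855_at was at -0.035 and Slc6a11 1433989_at at -0.0044, and after subtracting array medians Gad2 1429589_at was at 0.032. With an array left out the ranges that crossed 0 were -0.16 to 0.15 for Gad2 1429589_at, -0.27 to 0.042 for Slc32a1 1447573_at, -0.026 to 0.095 for Slc6a11 1433989_at, -0.11 to 0.11 for Abat 1433855_at, -0.10 to 0.030 for Gabbr1 1437188_at and -0.32 to 0.12 for Gabbr1 1425595_at. For the difference from the brightest probe set of the gene, another quantile normalization gave -0.020 for Gabbr1 1437188_at and 0.022 for Gabbr1 1425595_at. With an array left out that difference ran from -0.050 to 0.13 for Slc32a1 1447574_s_at, -0.26 to 0.38 for Slc32a1 1447573_at, -0.076 to 0.079 for Gabbr1 1437188_at and -0.27 to 0.14 for Gabbr1 1425595_at. The cause was not tested. Of 252 counts of higher or lower calls in the pathway and marker lists under alternatives, 94 were more than 1.5 times off the reported count. Chosen after seeing the data, the share of higher calls among dimmer probe sets above the median level was recomputed under the alternatives and ran from 5.67% to 20.9%.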
